A study of Homo sapiens with 6 samples.

Results

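The *HOX* genes were taken as every gene of the count table whose symbol is HOXA, HOXB, HOXC, or HOXD followed by a number. That gave 39 of 60623 genes, with 11 in the *HOXA* cluster, 10 in *HOXB*, 9 in *HOXC*, and 9 in *HOXD*. They were measured by RNA-Seq in TC28a2 cells, a human chondrocyte line immortalized with the SV40 large T antigen, treated for 24 hours with 2 μM mocetinostat or with its solvent DMSO (3 samples per condition). Mocetinostat inhibits class I histone deacetylases (HDACs), the enzymes that remove acetyl groups from histones. The samples of a condition are described as independent experiments, and all 6 come from the same line.

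*HOX* genes encode homeodomain transcription factors that give segments of the body axis and of the limbs their identity. In each cluster the genes are read in the same direction and are numbered by paralog group, with low numbers at the 3′ end and high numbers at the 5′ end. During development the 3′ genes are switched on earlier and further toward the head, and the 5′ genes later and further toward the tail and the tip of the limb. Mesenchymal cells of the adult keep a *HOX* pattern that reflects where in the body they came from, and silent stretches of the clusters carry histone marks laid down by Polycomb proteins.

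Each cluster lies on a chromosome of its own. By GENCODE 44 on GRCh38, *HOXA* lies on chromosome 7 on the minus strand, and *HOXB* spans chr17:48528526-48728750 on the minus strand. *HOXC* spans chr12:53938831-54056030 and *HOXD* spans chr2:176092721-176190907, both on the plus strand.

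The DMSO libraries held 4873426 to 11031132 counts and the mocetinostat libraries 1619344 to 5089542, so depth differed with treatment. Together the *HOX* genes took 3124, 1568, and 2221 counts in the DMSO samples and 1163, 385, and 569 counts in the mocetinostat samples. Of 11 chondrocyte markers, 8 could be tested and 6 rose, and *CNMD* had no counts in any sample. The summed level of the 11 was 115.7 to 140.1 CPM (read counts scaled to library size) with DMSO and 258.6 to 299.2 CPM with mocetinostat. Most of it was *SOX9* (means of 105.6 and 178.4 CPM), which is not counted among the 6 (log2 fold change 0.77). Fibroblast and osteoblast markers summed to 3965 to 4837 CPM with DMSO and 3795 to 4140 CPM with mocetinostat, most of it *COL1A1*, and 2 of the 3 tested rose. Markers of blood, endothelial, and epithelial cells summed to 4.39 to 8.26 CPM with DMSO and 31.3 to 42.4 CPM with mocetinostat, where 3 of the 4 tested rose (*PECAM1*, *EPCAM*, and *CDH1*), and *KRT5* had no counts with DMSO. Those 3 had too few control counts for the test and entered it through their mocetinostat counts. Among markers with at least 10 counts in each control, 3 of 5 of chondrocytes and 1 of 2 of fibroblasts and osteoblasts rose. Of blood, endothelial, and epithelial markers at that level, 0 of 1 rose. Of all genes tested, 20.2% rose. The part of these markers in the *HOX* results was not tested, and in RNA from whole cultures fewer cells that transcribe a gene and less RNA per cell cannot be told apart.

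Levels of different genes were compared as CPM per kilobase of annotated exon, after scaling of the libraries by TMM factors. With DMSO, the highest members were *HOXB7* at 17.9 ± 4.58 (mean ± SD, n = 3), *HOXB9* at 14.7 ± 0.986, and *HOXB2* at 12.2 ± 2.14 CPM per kilobase, and the values of each of them overlapped those of the next. A gap without overlap followed, and then 11 genes of the *HOXA*, *HOXB*, and *HOXC* clusters, from *HOXC4* at 8.14 ± 0.901 to *HOXB3* at 3.56 ± 0.329, in which every neighbour in the order overlapped the next. A second gap led to *HOXB13* (2.43 ± 0.641), *HOXA3* (2.40 ± 0.264), *HOXA5* (2.32 ± 0.299), and *HOXA10* (2.00 ± 0.343). All others lay below another gap, with *HOXC5* the highest of them at 1.27 ± 0.119 CPM per kilobase. No *HOXD* gene was above 0.300 CPM per kilobase with DMSO, and *HOXB1*, *HOXD8*, and *HOXD13* had no counts in that condition. The order depended on whether exon bases shared with other genes were included in the length. All counts of a gene were also divided by the length of exon that no other gene covers. By this measure *HOXA7* had 15.1 CPM per kilobase with DMSO, above *HOXB9* (14.7) and *HOXB2* (12.6). Reads on shared bases were not taken out, so the value of *HOXA7* is too high if such reads were counted.

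**Figure D1:**
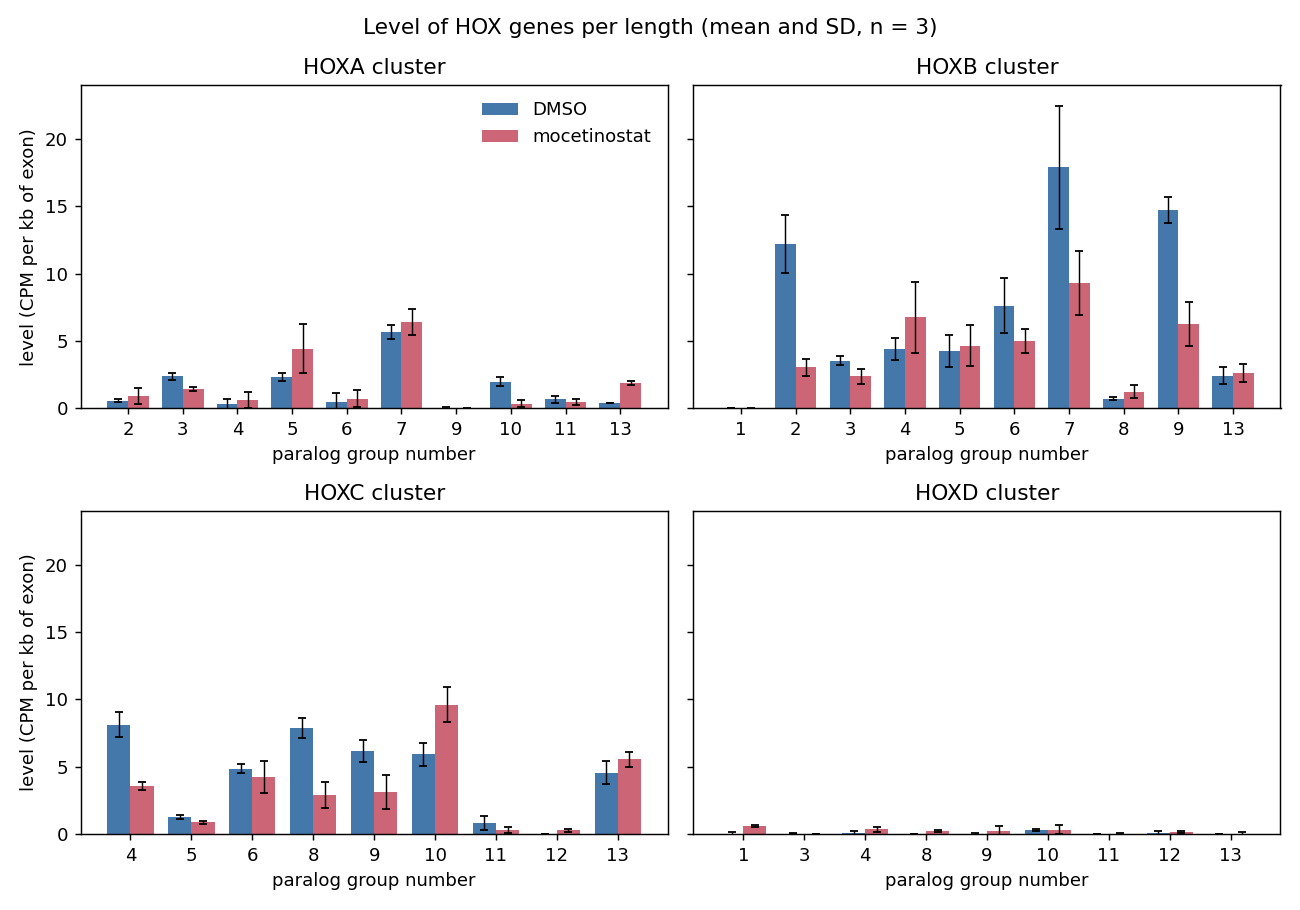
Level of *HOX* genes in CPM per kilobase of exon along the 4 clusters, in order of paralog group, with bars for the mean and whiskers for the SD of the 3 samples of each condition. The highest levels with DMSO were at *HOXB7*, *HOXB9*, and *HOXB2*, and the *HOXD* genes were at or near 0 in both conditions.

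Position alone did not order the levels with DMSO. In *HOXB*, the genes of groups 2 to 9 were all detected in every sample, whereas *HOXB1* at the 3′ end had 1 count in the 6 samples together. In *HOXA*, *HOXA9* had 5 counts in all between *HOXA7*, with 66 to 138 counts per DMSO sample, and *HOXA10*, with 43 to 74. In *HOXC*, *HOXC10* and *HOXC13* were at 5.93 and 4.57 CPM per kilobase, and *HOXC11* and *HOXC12* between them were at 0.830 and 0.0241.

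With mocetinostat the order changed. *HOXC10* was first at 9.61 ± 1.28 CPM per kilobase, followed by *HOXB7* at 9.32, *HOXB4* at 6.76, *HOXA7* at 6.39, and *HOXB9* at 6.25. With all counts divided by the length of exon that no other gene covers, *HOXA7* was instead above *HOXC10* (17.0 and 10.6 CPM per kilobase). The same limit holds for this value of *HOXA7*. *HOXB2* went from rank 3 to rank 13 of the 39 genes and *HOXA10* from rank 18 to rank 30, while *HOXA13* went from rank 25 to rank 18.

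To ask which members changed, mocetinostat was compared with DMSO by edgeR's quasi-likelihood test across the 13966 genes with enough counts. Mocetinostat significantly upregulated *HOXA13* and downregulated *HOXA10*, *HOXB2*, *HOXB9*, *HOXC4*, and *HOXC8*, with an adjusted p below 0.05 and a log2 fold change beyond 1 in either direction. In all, 2 upregulated and 5 downregulated genes were called of the 21 that could be tested (9.52% and 23.8%), while 20.2% and 8.18% of all genes tested passed in the same directions. The median log2 fold change of the 21 was -0.30, beside -0.0021 for all genes tested; with libraries scaled to *GAPDH* these medians were 0.24 and 0.53, with 6 upregulated and 2 downregulated *HOX* genes. At the adjusted p alone, 4 members were higher and 10 lower, beside 32.9% and 31.4% of all genes, and in either direction the 14 of 21 (66.7%) stand beside a background of 64.3%. Values of the conditions did not overlap for 5 members that were higher and 9 that were lower, beside 33.7% and 32.8% of all genes tested.

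The other 18 members had too few counts, with 1 to 75 counts in all 6 samples together, and none was called without the filter or by DESeq2. Of the 21 that passed, 17 reached the filter's level in all 3 samples of both conditions. *HOXA10* reached it in all samples of the DMSO condition only, and 3 members, *HOXA13* and *HOXB8* among them, in all samples of the mocetinostat condition only, so that the counts of calls are not counts over all members.

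**Figure D2:**
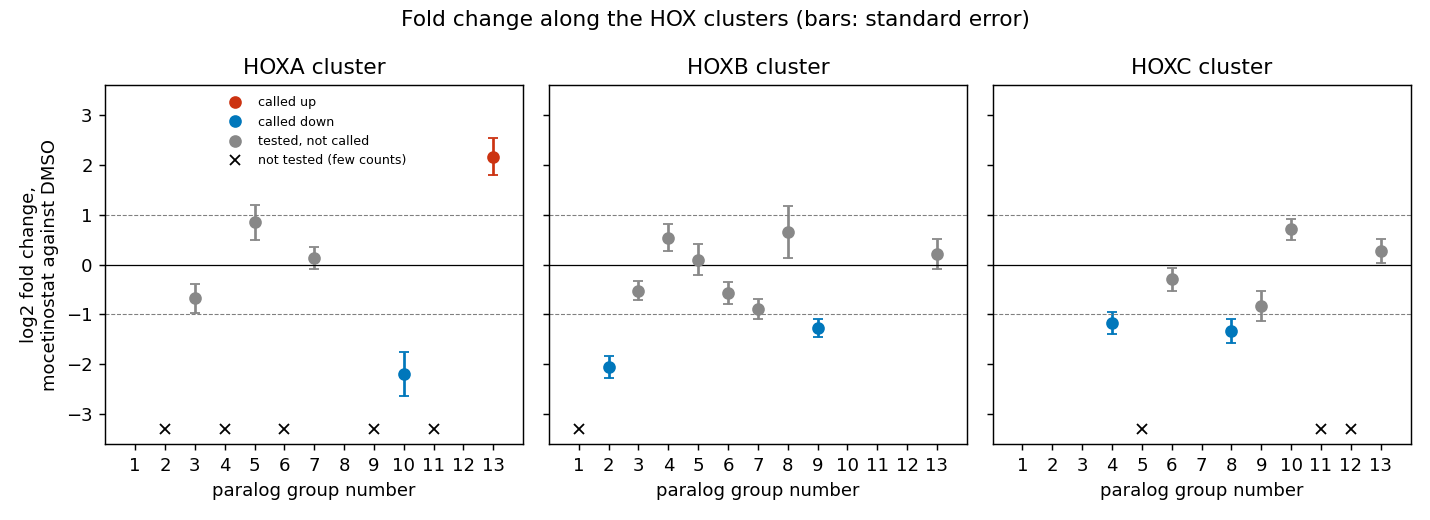
Log2 fold change of tested *HOX* genes (mocetinostat over DMSO) by paralog group from 1 to 13 in *HOXA*, *HOXB*, and *HOXC*, with bars of 1 standard error and crosses for genes with too few counts; dashed lines mark the fold threshold. The upregulated gene shown was in *HOXA* at group 13, and the 5 downregulated genes were at groups 10 of *HOXA*, 2 and 9 of *HOXB*, and 4 and 8 of *HOXC*; no *HOXD* gene could be tested.

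By cluster, edgeR called 2 genes up and 1 down of 6 tested in *HOXA*, 0 up and 2 down of 9 in *HOXB*, and 0 up and 2 down of 6 in *HOXC*. At an unadjusted p under 0.05, 1 *HOXB* gene and 1 *HOXC* gene were higher, and DESeq2 called 0 genes up in both clusters. At the adjusted p alone, *HOXA* had 3 genes higher and 2 lower, *HOXB* 0 higher and 5 lower, and *HOXC* 1 higher and 3 lower. Median log2 fold changes of the tested genes were 0.49 in *HOXA*, -0.52 in *HOXB*, and -0.57 in *HOXC*. These differences between clusters were not tested, because genes of a cluster are neighbours and not replicates. By position, the tested genes of group 3 and of group 9 were all lower at the p threshold by edgeR, those of group 13 all had log2 fold changes above 0, and groups 4, 7, 8, and 10 held values of both signs. By DESeq2, *HOXB9* alone of the genes of groups 3 and 9 passed the p threshold. The called genes stood singly, with no pair of neighbouring tested genes called in the same direction.

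In *HOXA*, *HOXA13* at the 5′ end of the cluster (chr7:27193503-27200091) patterns the hand, the foot, and the distal urogenital tract. Where 2 sets of 3 values are given for a gene, those of the DMSO samples come first. The level of *HOXA13* was 2.24, 2.07, and 1.90 CPM with DMSO and 8.85, 10.4, and 9.46 CPM with mocetinostat. All 3 treated samples were above all controls, and the gene was upregulated with a log2 fold change of 2.17 (SE 0.38, adjusted p = 7.79e-07 by edgeR).

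*HOXA10* (chr7:27170605-27180261), which acts in the lumbar spine, the limb, and the uterus, is separated from *HOXA13* by *HOXA11* alone. It had 6.64, 8.88, and 6.73 CPM with DMSO and 2.36, 0.615, and 0.822 CPM with mocetinostat, where the raw counts were 12, 1, and 2. Every treated sample was below every control, and the gene was downregulated with a log2 fold change of -2.19 (SE 0.44, adjusted p = 1.33e-05 by edgeR). Without mocetinostat replicate 1, which held most of the treated counts, the log2 fold change was -3.28. Its exons share 16.4% of their bases with the antisense gene *HOXA10-AS* on the other strand, which had 1 count in all samples, and whether counting used strand is not given in the sources used here.

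Because *HOXA13* and *HOXA10* moved in opposite directions within 1 cluster, the 250 bases before a RefSeq start of each are shown (GRCh38.p14, both read on the minus strand). The stretch before the start of *HOXA13* is chr7:27200092-27200341, and that before the second of 2 starts of *HOXA10* is chr7:27174321-27174570, inside the annotated span of *HOXA9*. Capitals mark the GC box GGGCGG or its reverse complement CCGCCC.
HOXA13: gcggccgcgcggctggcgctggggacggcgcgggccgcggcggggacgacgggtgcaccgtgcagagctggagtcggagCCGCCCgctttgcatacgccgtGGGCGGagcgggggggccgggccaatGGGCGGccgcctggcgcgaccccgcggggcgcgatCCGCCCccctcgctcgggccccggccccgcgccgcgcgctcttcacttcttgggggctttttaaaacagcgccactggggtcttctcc
HOXA10: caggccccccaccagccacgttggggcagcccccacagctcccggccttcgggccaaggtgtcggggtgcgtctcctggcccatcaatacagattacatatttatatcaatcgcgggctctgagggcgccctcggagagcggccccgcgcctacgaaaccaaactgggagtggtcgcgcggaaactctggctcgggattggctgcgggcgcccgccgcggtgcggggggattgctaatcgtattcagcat
The *HOXA13* stretch holds 40 CG dinucleotides, 78% G or C, and 4 GC boxes, and 4.19% of the 35120 RefSeq windows of 300 bases hold at least as many CG dinucleotides as its own window of 300 bases does. The *HOXA10* stretch holds 24 CG dinucleotides, 65.2% G or C, no GC box, and 1 match to TATAAA on either strand. For its own window of 300 bases, the share of windows with at least as many CG dinucleotides is 32.0%. RefSeq windows were at hand for 20 of the 39 *HOX* genes (27 windows), with a median of 22 CG dinucleotides beside 14 for all windows. Several of them were of *HOXA3*, *HOXC4* and *HOXC5* had the same window, and *HOXB1* was the only *HOXB* gene with a window. GGGCGG on either strand was in 13 of the 27, beside 44.95% of all windows, and TATAAA in 5 of the 27, beside 11.53%. These motifs are described as letters only and do not overlap each other.

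**Figure D3:**
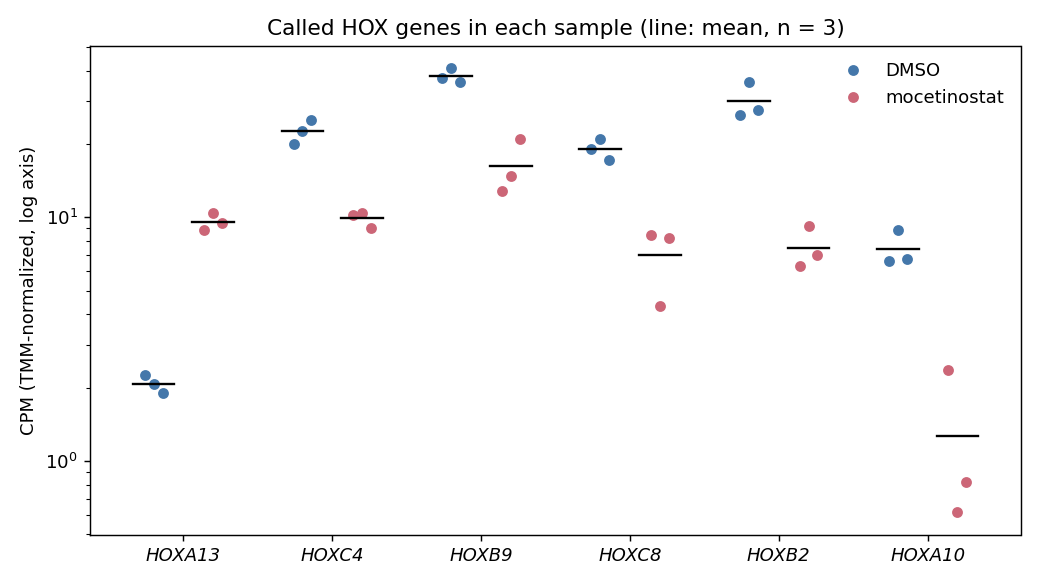
CPM on a log axis in each of the 6 samples for 6 called *HOX* genes, with the mean of each condition. Values of the 2 conditions did not overlap for any of the 6, and *HOXA13* was higher with mocetinostat while the other 5 were lower.

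The remaining tested *HOXA* genes did not pass both thresholds. *HOXA5*, which patterns the lower neck and the lung, had 4.58, 3.72, and 3.65 CPM with DMSO and 6.88, 11.1, and 4.93 CPM with mocetinostat (log2 fold change 0.84, SE 0.36, adjusted p = 0.0341 by edgeR). Without mocetinostat replicate 3, its lowest treated sample, it was called upregulated at 1.04. Without mocetinostat replicate 2, its highest treated sample, the adjusted p was 0.195 by edgeR, and with all samples it was 0.149 by DESeq2. *HOXA3*, which acts in the throat and thymus, had 9.33, 11.6, and 10.1 CPM and then 6.69, 5.53, and 6.58 CPM, a log2 fold change of -0.67 (adjusted p = 0.0365 by edgeR and 0.132 by DESeq2). *HOXA7* was the highest member of the cluster, with 12.4, 13.6, and 14.9 CPM and 13.2, 17.8, and 15.2 CPM (log2 fold change 0.13, adjusted p = 0.614), and 62.5% of its exon bases are shared with the antisense gene *HOXA-AS3*. Of the untested genes, *HOXA2* had raw counts of 18, 6, and 8 in the controls and 15, 1, and 7 in the treated samples. *HOXA11*, which patterns the forearm, had 17, 6, and 18 and 9, 1, and 4 counts, with 27.2% of its exon bases shared with *HOXA11-AS*. *HOXA4*, *HOXA6*, and *HOXA9* had 1 to 15 counts per condition.

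*HOXB* held the genes with the highest levels per kilobase of annotated exon with DMSO, and both of its called members fell. *HOXB2* (chr17:48540894-48545109), a hindbrain gene at the 3′ side of the cluster, had 26.2, 35.95, and 27.6 CPM with DMSO and 6.29, 9.22, and 6.99 CPM with mocetinostat. The highest treated sample was below the lowest control, and the log2 fold change of -2.06 (SE 0.23) had the smallest adjusted p of all members (1.34e-12 by edgeR). It was called downregulated in all 15 alternatives, with log2 fold changes from -2.30 to -1.52.

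*HOXB9* (chr17:48621156-48626358), which patterns the chest with the other group 9 genes, had 37.3, 40.9, and 35.97 CPM with DMSO and 12.8, 14.8, and 20.97 CPM with mocetinostat, without overlap. Its log2 fold change was -1.27 (SE 0.18, adjusted p = 5.76e-09 by edgeR). The call was kept in 13 of 15 alternatives and was lost under scaling to *GAPDH* (-0.73), where the gene was still lower, and under a test against a fold of 2.

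*HOXB7*, 2 groups further toward the 3′ side, had 20.3, 27.1, and 34.2 CPM with DMSO and 14.4, 10.4, and 17.7 CPM with mocetinostat, with no overlap between conditions. Its log2 fold change of -0.89 (SE 0.21, adjusted p = 1.18e-04 by edgeR) passed the p threshold and not the fold threshold, and it was called at -1.11 without DMSO replicate 1 and at -1.05 without mocetinostat replicate 3. *HOXB6* had 14.3, 20.7, and 24.7 CPM and 14.6, 14.1, and 10.3 CPM (-0.57, adjusted p = 0.0201). *HOXB3* had 23.6, 27.9, and 27.8 CPM and 19.5, 12.9, and 20.6 CPM (-0.52, adjusted p = 0.0124), and its log2 fold change was 0.015 under scaling to *GAPDH*. At the p threshold alone, these 3 genes were lower by edgeR together with *HOXB2* and *HOXB9*. By DESeq2, *HOXB3* and *HOXB6* did not pass that threshold (adjusted p = 0.055 and 0.0942).

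The other 4 tested *HOXB* genes did not pass the p threshold, and the conditions overlapped in all of them except *HOXB8*. *HOXB4*, known for expanding blood stem cells when overexpressed, had 8.53, 10.5, and 7.31 CPM with DMSO and 10.2, 19.7, and 10.7 CPM with mocetinostat (log2 fold change 0.54, adjusted p = 0.0721 by edgeR). *HOXB5* had 6.10, 10.3, and 7.31 CPM and 5.90, 8.61, and 11.5 CPM (0.10, adjusted p = 0.791). *HOXB8* had 1.98, 1.45, and 1.75 CPM and 2.56, 4.30, and 2.06 CPM (0.65, adjusted p = 0.273). *HOXB13*, known from the prostate and lying apart from the rest of the cluster at its 5′ end, had 7.81, 9.09, and 5.26 CPM and 10.2, 6.15, and 7.81 CPM (0.22, adjusted p = 0.533).

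In *HOXC*, the called genes were in the 3′ part and both fell. *HOXC4* (chr12:54016931-54056030) had 20.01, 22.5, and 25.00 CPM with DMSO and 10.2, 10.4, and 9.05 CPM with mocetinostat, and all treated samples were below all controls. Its log2 fold change was -1.17 (SE 0.22, adjusted p = 2.98e-06 by edgeR), and the call was lost under scaling to *GAPDH* (-0.64), under the test against a fold of 2, and with all libraries thinned to 1619344 counts (-0.81). Its exons share 17.5% of their bases with *HOXC6* on the same strand.

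*HOXC8* (chr12:54008985-54012769), which patterns the chest wall, had 19.1, 20.9, and 17.2 CPM with DMSO and 8.46, 4.30, and 8.22 CPM with mocetinostat. The conditions did not overlap, and the log2 fold change was -1.34 (SE 0.24, adjusted p = 1.72e-06 by edgeR). No other annotated exon overlaps it, and the call was lost under scaling to *GAPDH* (-0.80) and under the test against a fold of 2.

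*HOXC10*, a hindlimb and lumbar gene, was the only *HOXC* member that was higher at the p threshold. It had 11.7, 15.3, and 15.2 CPM with DMSO and 22.8, 25.8, and 19.7 CPM with mocetinostat, without overlap, and its log2 fold change was 0.71 (SE 0.20, adjusted p = 0.00180 by edgeR). *HOXC9*, its neighbour toward the 3′ side, had 9.78, 9.30, and 11.8 CPM and 7.67, 4.30, and 3.70 CPM (-0.84, adjusted p = 0.0118), and was called downregulated at -1.39 without mocetinostat replicate 1. Without mocetinostat replicate 3 the adjusted p of *HOXC9* was 0.0740 by edgeR, and with all samples it was 0.0712 by DESeq2. *HOXC6* had 16.4, 15.9, and 18.1 CPM and 10.8, 19.1, and 13.98 CPM (-0.30, adjusted p = 0.237), with 0.24 under scaling to *GAPDH*. *HOXC13*, which controls hair keratin genes, had 11.4, 8.47, and 12.4 CPM and 13.2, 11.7, and 14.4 CPM (0.27, adjusted p = 0.325). Of the untested members, *HOXC5* had 25, 9, and 14 counts in the controls and 7, 2, and 4 in the treated samples, and 67.3% of its exon bases are shared with the same-strand gene *AC012531.2*. *HOXC11* had 24, 7, and 31 and 10, 1, and 2 counts, and *HOXC12* had 1, 0, and 1 and 5, 1, and 3.

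*HOXD* was nearly silent, with 67 of the 9030 *HOX* counts. Its highest member with DMSO, *HOXD10*, had 6, 4, and 6 counts in the controls and 7, 2, and 0 in the treated samples, and 7 was the highest count of any *HOXD* gene in any sample. *HOXD1*, at the 3′ end, had 0, 0, and 2 counts in the controls and 5, 2, and 3 in the treated samples, and *HOXD8* had 0, 0, and 0 and 4, 1, and 1. Without the filter, no single *HOXD* gene passed the adjusted p threshold by edgeR (0.0743 for *HOXD8* and 0.1085 for *HOXD1*). No difference of a single *HOXD* gene was therefore established at this depth.

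Within the same cluster, the lncRNA gene *HAGLR* passed the test although no *HOXD* gene could be tested. It lies at chr2:176164051-176188958 on the minus strand, opposite in direction to the *HOXD* genes, with its start next to that of *HOXD1*. *HAGLR* had 3, 0, and 0 counts in the controls and 78, 35, and 41 in the treated samples, or 0.0897 ± 0.155 and 17.9 ± 3.22 CPM (mean ± SD, n = 3), and was upregulated (adjusted p = 2.62e-19 by edgeR). The ratio of the pooled counts per total was 128.4, with an exact 95% interval of 43.1 to 629.6 that covers counting error only, and without DMSO replicate 1, the only control with counts, it was at least 66.4-fold higher, taking 3 counts over the condition as the floor. *HOXD1* shares 60.1% of its exon bases with genes on the other strand, so its few counts and those of its antisense neighbours cannot be told apart where counting ignored strand.

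Among 70 other genes within 20 kb of a cluster span, 37 had no counts and 7 could be tested, of which edgeR called *HAGLR* up and 0 down (2 lower at an unadjusted p under 0.05, and 0 down by DESeq2). *HOTAIR*, the *HOXC* lncRNA that has been studied as a silencer of *HOXD*, had 15, 12, and 28 counts in the controls and 5, 6, and 6 in the treated samples (log2 fold change -0.35, adjusted p = 0.596 by edgeR). *HOTTIP*, which starts beside *HOXA13* on the other strand, had 1, 1, and 3 and 2, 0, and 0 counts. It had too few counts to be tested, while *HOXA13* beside it rose.

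Paralogs of 1 group encode closely related proteins, and their ratio within a sample does not depend on how libraries are scaled. The log2 ratio of counts was compared for the 11 pairs of tested genes that share a group. For 6 pairs the conditions did not overlap, at an exact permutation p of 0.1 (two-sided, the smallest that 3 against 3 samples allow), or 0.183 after adjustment over the 11 pairs, so none passed 0.05. Of all single genes tested, 66.5% did not overlap between conditions, and no such share was computed for other pairs of genes. The largest shift was in group 10, where the log2 ratio of *HOXA10* to *HOXC10* went from -0.92 ± 0.22 with DMSO to -4.11 ± 0.82 with mocetinostat (mean ± SD, n = 3). It rested on 12, 1, and 2 counts of *HOXA10* in the treated samples. In group 13, *HOXA13* to *HOXB13* went from -1.77 ± 0.32 to 0.27 ± 0.47, and *HOXA13* to *HOXC13* from -2.32 ± 0.34 to -0.44 ± 0.25, each shifting toward *HOXA13*. *HOXB4* to *HOXC4* went from -1.36 ± 0.36 to 0.38 ± 0.46, *HOXB8* to *HOXC8* from -3.42 ± 0.30 to -1.20 ± 1.04, and *HOXA7* to *HOXB7* from -0.96 ± 0.24 to 0.14 ± 0.53. For the remaining 5 pairs, among them *HOXA3* to *HOXB3* (difference -0.090) and *HOXB9* to *HOXC9* (difference -0.26), the conditions overlapped.

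Summed over their members, *HOXB* took 52.1%, 56.8%, and 53.0% of the *HOX* counts with DMSO and 42.2%, 42.3%, and 46.4% with mocetinostat. *HOXA* took 14.4%, 13.2%, and 13.8% with DMSO and 21.9%, 22.9%, and 20.9% with mocetinostat. *HOXC* took 31.8% ± 2.00 and 32.7% ± 1.41 (mean ± SD, n = 3), and its values overlapped between conditions, whereas those of *HOXA*, *HOXB*, and *HOXD* did not. *HOXD* took 0.427% ± 0.0972 and 1.79% ± 0.199, which rested on 10, 8, and 10 counts in the controls and 23, 7, and 9 in the treated samples.

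In CPM, the sum of *HOXB* was 167.3 ± 19.3 with DMSO and 101.8 ± 6.14 with mocetinostat, and that of *HOXC* was 98.4 ± 7.24 and 76.1 ± 2.91. The *HOXA* sum was 42.7 ± 2.13 and 51.1 ± 2.71, and all *HOX* genes together gave 309.7 ± 25.4 and 233.1 ± 4.04 CPM. Per 1000 *GAPDH* counts, the direction of *HOXC* turned and its values overlapped (32.7 ± 3.34 and 36.4 ± 1.85), and the values of *HOXB* overlapped between conditions (55.6 ± 7.54 and 48.6 ± 2.90), while *HOXA* was higher in both scalings (14.2 ± 1.12 and 24.4 ± 0.883). *HOXD*, on few counts, was also higher in both, at 1.34 ± 0.393 and 4.18 ± 0.426 CPM. Per 1000 *GAPDH* counts it had 0.446 ± 0.138 and 2.00 ± 0.237.

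**Figure D4:**
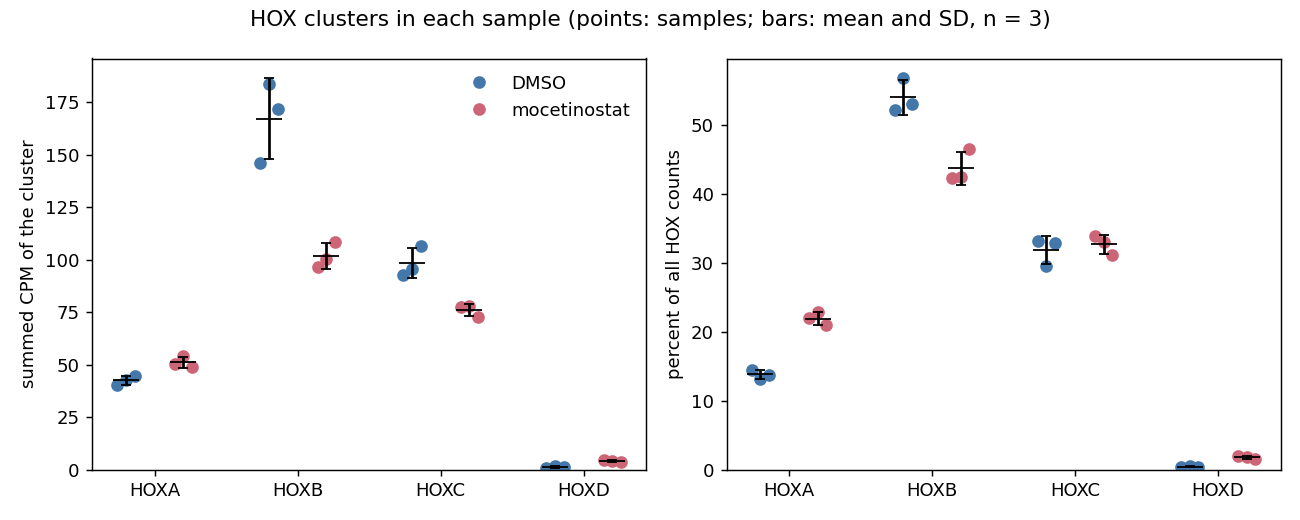
Summed CPM of each cluster (left) and its share of all *HOX* counts in percent (right) in the 6 samples, with the mean and SD of each condition. The share of *HOXB* was lower and those of *HOXA* and *HOXD* were higher in every mocetinostat sample than in any DMSO sample, and the shares of *HOXC* overlapped.

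*HOX* proteins bind DNA together with TALE homeodomain cofactors of the PBX, MEIS, and PKNOX families. All 9 genes listed were tested; 1 was upregulated and 2 were downregulated, and the median log2 fold change was -0.54. *MEIS3* rose from 23.1 ± 1.94 to 56.7 ± 12.4 CPM (mean ± SD, n = 3; log2 fold change 1.26, adjusted p = 3.90e-11 by edgeR). *PBX2* fell from 35.96 ± 3.99 to 12.4 ± 3.44 CPM (-1.43, adjusted p = 7.25e-10), and *MEIS2* fell from 117.1 ± 8.97 to 57.6 ± 8.11 CPM (-1.01, adjusted p = 5.50e-12). Under scaling to *GAPDH*, 3 of the 9 were upregulated and 0 downregulated, and with RLE size factors 1 of each.

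Of 10 genes for Polycomb and trithorax proteins and the insulator protein CTCF, which keep *HOX* domains silent, active, or apart, 0 were upregulated and 2 downregulated, and their median log2 fold change was -0.20; 1 was higher at an unadjusted p under 0.05, and DESeq2 also called 0 up and 2 down. *KMT2B*, a histone H3 lysine methyltransferase of the trithorax group, fell from 132.3 ± 18.1 to 49.6 ± 5.17 CPM (-1.39, adjusted p = 4.76e-17 by edgeR), and *CTCF* fell from 147.6 ± 10.3 to 67.02 ± 6.92 CPM (-1.16, adjusted p = 2.60e-15). *EZH2*, the catalytic subunit of a Polycomb repressive complex, had 92.01 ± 2.83 and 99.3 ± 5.22 CPM (0.12, adjusted p = 0.338). Under scaling to *GAPDH* none of the 10 was called in either direction and their median was 0.34.

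*HOX* genes belong to the ANTP class of homeobox genes, and 50 other members of that class were listed beside them. Of the 20 that could be tested, 15 were upregulated and 0 downregulated by edgeR, and the median log2 fold change was 2.45; 1 was lower at an unadjusted p under 0.05, and DESeq2 called 22 up and 0 down of 34 tested. Among them, *NKX2-2* had 0, 0, and 0 counts in the controls and 55, 17, and 30 in the treated samples, at least 85.1-fold higher against a floor of 3 counts over the DMSO condition. *DLX5*, a regulator of bone and cartilage development, had 0, 0, and 0 and 13, 5, and 5 counts, at least 19.2-fold higher. *MSX2*, which acts in skull and limb, rose from 10.6 ± 0.711 to 58.6 ± 11.7 CPM (2.43, adjusted p = 7.54e-21 by edgeR).

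The starting levels of the groups were not alike. Of the 20 tested ANTP genes outside the *HOX* clusters, 7 had fewer than 10 counts in every DMSO sample, so that they passed the filter through the mocetinostat condition. Another 11 reached 10 counts in each of the controls. The genes in neither set were also below the filter's level of 2.007 CPM in every DMSO sample and passed in the same way. Of those 11, 6 were upregulated and 0 downregulated. Of the 19 *HOX* genes at that level, 1 was upregulated and 5 were downregulated, among them *HOXA10*, which passed the filter through the DMSO condition only. The share of all genes called at that level was not computed. Over all genes tested at any level, 20.2% were upregulated and 8.18% downregulated. The difference between *HOX* and other ANTP genes was not tested.

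**Figure D5:**
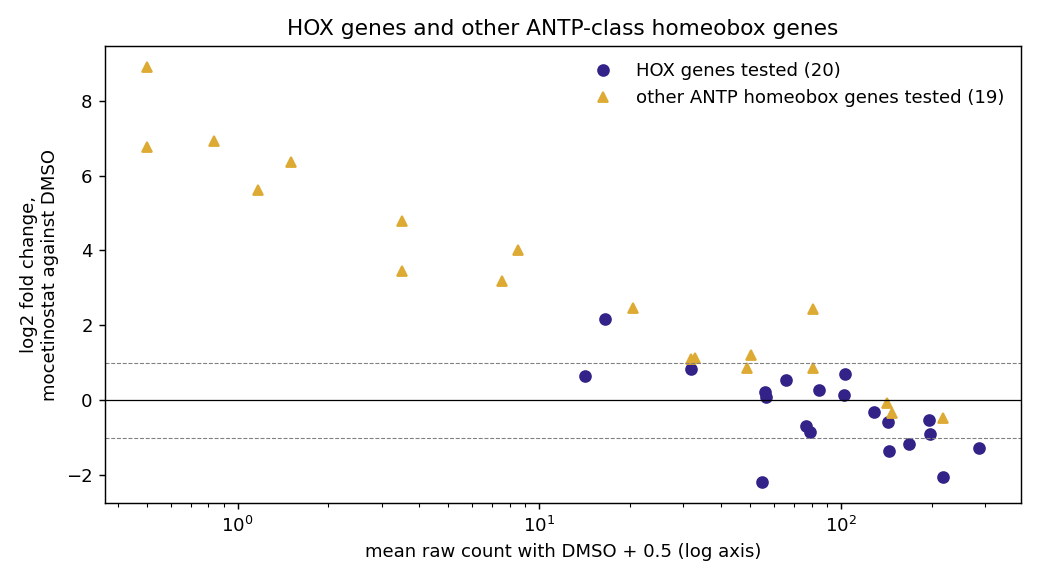
Log2 fold change (mocetinostat over DMSO) against the mean raw count with DMSO plus 0.5 on a log axis, for tested *HOX* genes and tested ANTP genes outside the clusters. The *HOX* genes shown lay between -2.19 and 2.17, and the highest values were those of ANTP genes outside the clusters with few DMSO counts.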

How the data were processed

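RNA-Seq libraries were made from total RNA of 6 TC28a2 cultures, 3 per condition. The authors deposited 1 table of raw counts of reads per gene for 60623 genes; per the labels and methods, they removed adapters and ribosomal RNA reads, aligned single reads to GRCh38 with STAR 2.6.1d, and counted with featureCounts 1.6.4. Whether counting used strand, and how reads over several genes were treated, is not given in the sources used here, so that genes with overlapping exons are uncertain. Column names gave the sample of each column, and every column was used.

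From the counts, edgeR 4.0.16 (limma 3.58.1, R 4.3.3) computed TMM factors, kept 13966 genes with filterByExpr at a minimum count of 10, and tested treatment alone, with adjustment by the Benjamini-Hochberg method over all genes tested. Calls required an adjusted p below 0.05 and a log2 fold change beyond 1 in either direction. SE is that of the log2 fold change. CPM were computed with TMM factors, and levels per kilobase with exon lengths of GENCODE 44, to which 99.5% of genes were matched by identifier. Paralog ratios used counts plus 0.5 and an exact permutation test (SciPy 1.17.1). The test was tried on simulated counts with known changes before use. Pandas 2.3.3 and matplotlib 3.10.9 served for summaries and figures.

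Depth was 1619344 to 11031132 counts per library; reads carry no molecular identifiers, so intervals and floors cover counting error only. Replicates differed by more than sampling noise (chi-square per degree of freedom 1.96 to 7.19), and each counted as 1 sample. Every *HOX* gene entered the fits and counts, and some results on single genes are not reported here. Named with values in every sample were members with a mean of at least 10 counts per sample in a condition, the highest member of each cluster, and called members; from other lists, called genes or those with large changes, at most 4 per list. *HOTTIP* and the antisense genes beside named members were named as neighbours, whatever their values; *HOXC12*, *HOXD1*, *HOXD8*, *EZH2*, *ALDH1A2*, and *EVX1* were chosen after their values were seen. The members and lists were chosen with earlier results of these data known. Alternatives were scaling to *GAPDH*, RLE size factors, plain library sizes, omission of the filter, at least 10 counts in every sample, DESeq2 1.42.0, glmTreat (a test against a fold of 2), the replicate number as a block, libraries thinned to the smallest total, exon lengths without shared bases, clusters without their highest member, and each sample left out in turn.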

Additional observations from a re-analysis of the deposited data

How the results depend on the processing

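Scaling to *GAPDH* moved the median log2 fold change of all genes by 0.536 and gave 6 upregulated and 2 downregulated *HOX* genes in place of 2 and 5, and 4425 and 284 of all genes in place of 2827 and 1142, so that 94.0% rather than 71.2% of the calls were up. With at least 10 counts in every sample, 1 *HOX* gene was up and 3 down, and 1620 and 704 of all genes. The filter removes low members by construction. Thinned libraries gave 1 *HOX* gene up, and glmTreat gave 2 down, with 465 of all genes down and 81.7% of calls up. Without the filter, 2120 of all genes were down and 60.2% of calls up. DESeq2 gave 2 *HOX* genes up and 5 down, and over the 30 it gave a value the median was 0.099. Of the members past the adjusted p alone by edgeR, *HOXA3*, *HOXA5*, *HOXB3*, *HOXB6*, and *HOXC9* did not pass it by DESeq2 (0.055 to 0.149). Leaving out each sample gave 2 to 3 *HOX* genes up and 5 to 6 down, and 2842 to 3215 and 1173 to 1267 of all genes.

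Of the fold changes of single members over all alternatives, 280 kept their direction and side of the thresholds, 11 gained a call, 7 lost one, and 8 changed sign. The calls of *HOXB9*, *HOXC4*, and *HOXC8* were lost under *GAPDH* and glmTreat, and that of *HOXC4* in thinned libraries. *HOXA10* had too few counts to be tested in thinned libraries or with at least 10 counts in every sample. Its call was therefore not checked at equal depth. Calls were gained by *HOXA5*, *HOXB4*, *HOXB8*, and *HOXC10* under *GAPDH*, by *HOXB7* and *HOXC9* without the filter, and by *HOXC9* in thinned libraries. Changes of sign without the filter were -0.12 for *HOXA7*, -0.15 for *HOXB5*, and -0.026 for *HOXB13*, and under *GAPDH* 0.015 for *HOXB3* and 0.24 for *HOXC6*. With samples left out, *HOXB5* ranged from -0.19 to 0.41 and *HOXB13* from -0.057 to 0.32. The cause of these changes was not tested.

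The member with the most raw counts in each cluster was left out (*HOXA7*, *HOXB9*, *HOXC4*, and *HOXD10*). Without them, *HOXA* held 12.4% and 18.7% of *HOX* counts with DMSO and mocetinostat, *HOXC* 34.7% with mocetinostat, and *HOXD* 0.248% with DMSO. With all counts of a gene divided by its unshared exon length, *HOXA* held 18.3% and 27.6%, *HOXB* 49.4% and 38.7%, *HOXC* 31.0% with mocetinostat, and *HOXD* 2.73% with mocetinostat. Reads on shared bases were not taken out of these counts. In thinned libraries *HOXD* held 0.0634% with DMSO. The share of *HOXB* was lower and that of *HOXA* higher with mocetinostat in each of these.

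The deviations of samples with the same replicate number were nearly uncorrelated (0.0131, 0.0166, and -0.0217). With 3 samples per condition, this does not exclude that samples of equal number come from the same experiment. With the replicate number as a block, 2 *HOX* genes were up and 5 down, and 2798 and 1133 of all genes. At this depth, 18 of the 39 members had too few counts to be tested.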

Other observations

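Retinoic acid, which is made by ALDH1A enzymes and cleared by CYP26 enzymes, is a classical inducer of 3′ *HOX* genes. Of 15 genes listed for its supply, its receptors, and the CDX factors, 9 could be tested by edgeR, 4 rose, and 1 fell, with a median log2 fold change of 0.72. Among the 4 that rose, *RARB*, *ALDH1A2*, and *ALDH1A1* had fewer than 10 counts in every control, so that they passed the filter through the mocetinostat condition. Of the 6 genes that reached 10 counts in each of the controls, 1 rose and 1 fell. A filter that asked for 10 counts in each library left 6 genes, with a median of -0.047. *RARB*, a receptor gene, rose from 0.474 ± 0.219 to 4.81 ± 2.23 CPM (mean ± SD, n = 3; adjusted p = 7.02e-06 by edgeR), and *CYP26B1* rose from 7.93 ± 1.76 to 43.3 ± 9.02 CPM (adjusted p = 2.51e-18). *ALDH1A2* rose from 0.534 ± 0.350 to 3.31 ± 0.827 CPM (adjusted p = 1.42e-04), and *ALDH1A1* had 0, 0, and 0 counts in the controls and 11, 6, and 6 in the treated samples, at least 19.2-fold higher against a floor of 3 counts over the DMSO condition. *ALDH1A3*, by far the highest of the 3 synthesis genes, fell from 229.2 ± 7.55 to 79.7 ± 6.30 CPM (adjusted p = 3.36e-23). Under scaling to *GAPDH*, 5 of the 9 were upregulated and 0 downregulated.

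The 3 nearest protein-coding genes on each side of each cluster gave 24 genes, of which 21 could be tested, 3 rose, and 1 fell, with a median log2 fold change of -0.065. *SKAP2*, next to the 3′ end of *HOXA*, rose from 17.6 ± 3.06 to 50.8 ± 6.63 CPM (adjusted p = 3.65e-13 by edgeR), and its neighbour *SNX10* rose from 3.06 ± 0.553 to 9.73 ± 2.82 CPM (adjusted p = 9.91e-06). *TTLL6*, near the 5′ end of *HOXB*, had 3, 2, and 1 counts in the controls and 11, 9, and 14 in the treated samples (adjusted p = 1.20e-06). *ATP5MC2*, near *HOXC*, fell from 55.7 ± 6.70 to 28.6 ± 8.84 CPM (adjusted p = 1.18e-08). *EVX1*, the homeobox gene beside *HOXA13*, had 0, 0, and 0 counts in the controls and 7, 0, and 0 in the treated samples, all of them in mocetinostat replicate 1.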
